A study of Mus musculus with 18 samples.

Results

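Colorectal tumours of mice labelled Il1f5-/- (KO) were compared with tumours of mice labelled Il1f5+/+ (WT). The comparison used the 4 libraries that the labels place in these 2 tumour groups, KO 1, KO 2, WT 1 and WT 2, of 18 libraries in the series. All mice were C57BL/6, and the tumours came from the AOM/DSS model, in which the carcinogen azoxymethane (AOM) is combined with dextran sulfate sodium (DSS), a polymer that injures the colon lining. The dose and timing of both agents, the age and sex of the mice and the number of tumours pooled in a library are not stated in the labels. The series' design text counts 2 mice in each tumour group. The other libraries were 4 tumours from a line with its own Il1f9-/- and Il1f9+/+ mice and 10 pieces of distal colon from both lines, taken after 5 days of 2.5% DSS and 2 days of water (colitis). Nothing in the labels ties a library to 1 mouse, so p-values measure only the spread between libraries. In the main fit that spread was estimated over all 8 tumour libraries, and for the comparison with colitis over all 18. With bulk tissue, fewer cells of a type and less RNA per cell cannot be told apart.

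The product of Il1f5 (current symbol Il36rn) is an antagonist of the IL-36 receptor. It occupies the receptor Il1rl2 without signalling and so holds back the agonists IL-36 alpha, beta and gamma, encoded by Il1f6, Il1f8 and Il1f9, which drive inflammatory gene expression in barrier epithelium through Il1rap, Myd88 and Nfkbiz. Colorectal tumours of this model are known for activated Wnt signalling, which keeps epithelial cells in a crypt-like dividing state and at the expense of mature absorptive and goblet cells. The protein p53, encoded by Trp53, is a stress-activated transcription factor that stops the cell cycle or triggers cell death through target genes such as Cdkn1a, Ccng1 and Eda2r, and it is kept low by Mdm2, itself a p53 target.

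Library totals in the 4 libraries ran from 17472257 to 21527832 counts, with mitochondrial genes at 2.57 to 2.90% of counts. Epcam, a defining epithelial gene, was read at 1505 to 1830 CPM in these 4 tumours, and the Wnt target Notum at 188.7 to 283.3 CPM against at most 0.443 CPM in the 10 colitis libraries. Cdx2, an intestinal identity factor, was present at 17.4 to 92.5 CPM, below the 243.7 to 384.3 CPM of the colitis libraries. CPM are counts relative to a library's scaled total. Values set beside colitis libraries use a scaling over all 18 libraries and all others a scaling over the 8 tumour libraries. Fold changes are log2 of KO over WT ± standard error, n = 2 and 2, with adjusted p from edgeR. The standard error was worked back from the fold change and the F statistic of the edgeR test. A gene was called at an adjusted p under 0.05, and a wider set at an adjusted p under 0.10 is described as higher or lower only.

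The targeted gene went against its label. Il1f5 (chromosome 2, 24276954 to 24283426) had 211 counts in the library labelled KO 1 and 102 in that labelled KO 2, and 0 counts in WT 1, in WT 2 and in all 4 tumours of the Il1f9 line. The same held in colitis, with 36, 43 and 45 counts in the libraries labelled Il1f5 KO and 0 in the other 7. With the WT group set to 3 counts, the limit that a count of 0 allows, the KO-labelled group was at least 93.4-fold higher relative to unscaled library totals. Tested on the counts as they are, Il1f5 had an adjusted p of 0.0529 in edgeR and of 0.197 with the DESeq2 Wald test. Gene totals do not show which exons these reads cover, so every direction given here follows the libraries labelled KO and WT, and the loss of Il1f5 cannot be read from them. Other members of the IL-36 axis differed less. Il1f6 was read at 1.64 and 1.75 CPM in KO against 0.654 and 0.490 in WT (1.55 ± 0.40, adjusted p = 0.0859). Il1f9 was read at 6.38 and 7.29 CPM in KO and 6.96 and 10.4 in WT, with overlapping groups. The receptor Il1rl2 stood at 3.32 and 4.52 CPM in KO and 6.87 and 8.57 in WT (-0.98 ± 0.35, adjusted p = 0.145). The downstream factor Nfkbiz and the kinase Irak4 overlapped between the groups. Of the 9 genes of the axis, 2 were higher at 0.10, namely Il1f5 and Il1f6, and 0 lower, where 4.33% of all genes tested were higher and 2.83% lower. Without KO 1, WT 1 or WT 2 neither passed.

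Trp53 showed the firmest difference between the 2 groups. It was read at 15.1 and 16.7 CPM in KO and at 115.0 and 102.9 CPM in WT, a 6.85-fold lower mean in KO. The fall was -2.78 ± 0.15 on the log2 scale (adjusted p = 0.0002), and it kept its call in all 10 alternative settings, with adjusted p of 0.00176 to 0.0187 when each library was left out. Across the whole series the 2 KO tumours stood apart: Trp53 ranged from 97.9 to 118.5 CPM in the 4 tumours of the Il1f9 line, from 43.0 to 62.6 CPM in the 10 colitis libraries and only from 15.8 to 17.1 CPM in the Il1f5 KO tumours. The gene (ENSMUSG00000059552) lies on chromosome 11, 69580359 to 69591873, as the deposited table gives it without naming a build. Of 47 other genes tested within 0.4 Mb of it, 4 were higher and 0 lower at 0.10, against 4.33% and 2.83% of all genes tested. The divergent neighbour Wrap53 was read at 22.8 and 16.8 CPM in KO and 14.0 and 16.3 in WT. The processed pseudogene Trp53-ps on chromosome 17, whose reads the counting could not separate surely from Trp53, was also lower (0 and 0.0513 CPM in KO, 0.981 and 0.882 in WT, adjusted p = 0.0693).

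**Figure D1:**
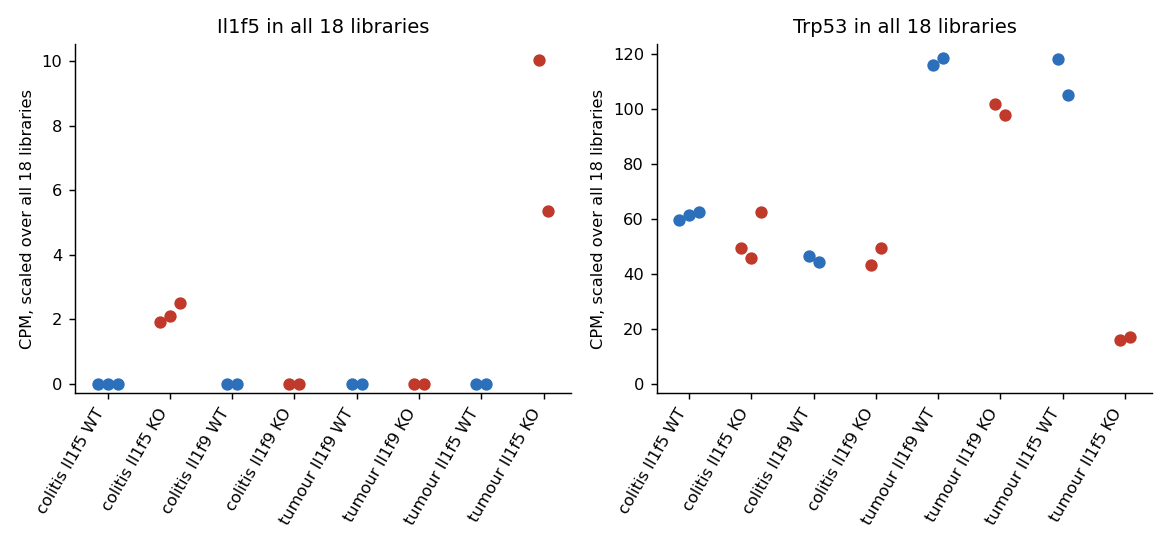
Il1f5 (left) and Trp53 (right) in CPM, scaled over all 18 libraries, 1 point per library, WT in blue and KO in red. Il1f5 reads appear only in groups labelled Il1f5 KO, and the Trp53 values of the Il1f5 KO tumours, 15.8 to 17.1 CPM, lie below all others.

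Promoters of Trp53 and its targets are shown because this gene and several targets were low in the same 2 libraries. The 250 bases before the start were taken from the RefSeq promoter table (GRCm38.p6), which held 13 of the 16 genes of the p53 list. Capitals mark matches to the p53 decamer, the 10-base unit of the p53 response element, searched on 1 strand because the consensus reads alike on both. Of 32851 promoters, 7.13% held such a decamer and 0.0639% held a pair of them 0 to 13 bases apart. Of the 18 promoters of the p53 list, 6 held at least 1 decamer, those of 6 genes, namely Trp53, Ccng1, Mdm2, Cdkn1a, Bax and Aen, and 1, Cdkn1a, held a pair. The promoters of Bax and Aen also held a decamer but are not printed, and these genes overlapped between KO and WT. The printed set therefore leaves out genes with a decamer and no separation of the groups. Eda2r and Trp53inp1, both below WT in KO, are not among the 6 genes. They had either no decamer or no promoter to search. A link between a decamer and a lower level in KO was not tested. The windows printed are chr11:69580109-69580358 (plus strand), chr11:40755287-40755536 (minus strand), chr10:117710759-117711008 (minus strand) and chr17:29090729-29090978 (plus strand).
Trp53: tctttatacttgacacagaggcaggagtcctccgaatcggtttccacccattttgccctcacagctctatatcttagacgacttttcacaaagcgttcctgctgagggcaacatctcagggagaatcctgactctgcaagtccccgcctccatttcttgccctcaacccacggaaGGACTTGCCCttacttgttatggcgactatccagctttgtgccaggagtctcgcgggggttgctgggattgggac
Ccng1: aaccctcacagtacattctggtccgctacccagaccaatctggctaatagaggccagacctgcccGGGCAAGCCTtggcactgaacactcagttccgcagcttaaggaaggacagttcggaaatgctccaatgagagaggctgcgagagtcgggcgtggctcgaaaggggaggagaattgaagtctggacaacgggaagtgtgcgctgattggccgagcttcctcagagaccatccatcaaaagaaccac
Mdm2: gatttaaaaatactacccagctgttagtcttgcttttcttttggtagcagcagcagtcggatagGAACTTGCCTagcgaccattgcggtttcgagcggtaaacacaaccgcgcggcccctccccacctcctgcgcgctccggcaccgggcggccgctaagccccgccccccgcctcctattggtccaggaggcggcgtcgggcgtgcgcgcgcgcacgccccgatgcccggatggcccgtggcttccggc
Cdkn1a: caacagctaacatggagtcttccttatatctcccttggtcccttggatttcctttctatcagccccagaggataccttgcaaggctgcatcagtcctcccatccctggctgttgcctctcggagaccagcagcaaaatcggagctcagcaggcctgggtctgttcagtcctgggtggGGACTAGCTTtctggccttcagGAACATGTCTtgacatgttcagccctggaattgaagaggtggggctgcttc

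Of the 16 genes of the p53 list, Trp53 included, 5 were lower and 0 higher at 0.10, the same threshold at which 2.83% of all genes were lower. In 11 of the 16 both KO libraries lay below both WT libraries, as they did for 30.3% of all genes tested. The list's median log2 fold change was -0.46 against 0.0061 over all genes. Eda2r, a death-domain receptor, was read at 0 and 0.308 CPM in KO and at 4.67 and 4.36 in WT, and the 6 counts of the KO group stood against 189 in WT (adjusted p = 0.0529). Ccng1, encoding cyclin G1, stood at 42.2 and 44.4 CPM in KO and 88.6 and 116.3 in WT (-1.24 ± 0.18, adjusted p = 0.0616). Trp53inp1, a p53-induced nuclear protein, stood at 78.7 and 89.5 CPM in KO and 170.1 and 150.7 in WT (-0.93 ± 0.20, adjusted p = 0.0792). The groups did not overlap for any of these 3 targets. Mdm2 was lower as well, at 33.1 and 39.5 CPM in KO and 59.6 and 54.1 in WT (-0.65 ± 0.17, adjusted p = 0.0865). Cdkn1a, encoding the cell-cycle inhibitor p21, did not pass, at 114.8 and 104.9 CPM against 136.1 and 157.2 (-0.42 ± 0.18, adjusted p = 0.206). The cell-death genes Bax and Bbc3 overlapped between the groups, with log2 fold changes of 0.05 ± 0.17 and 0.00 ± 0.25. The count of lower members was 8 when the 2 groups were fitted alone and 1 to 3 when a library was left out, with 1 without WT 2. Both Il1f5 groups were low for some targets beside the other line, where Eda2r was read at 21.1 to 25.0 CPM and Ccng1 at 183.0 to 224.6 CPM.

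Regulators of p53, chosen after their values were seen, differed too. Cdkn2a, whose transcripts encode the cell-cycle inhibitor p16 and the Mdm2 inhibitor p19Arf, was read at 49.2 and 41.1 CPM in KO and at 8.37 and 13.1 in WT (2.07 ± 0.31, adjusted p = 0.0671). The 4 tumours of the Il1f9 line spanned 21.7 to 78.8 CPM for Cdkn2a on the 18-library scale, and the 10 colitis libraries at most 0.295. Mdm4, a relative of Mdm2 that restrains p53, stood at 58.6 and 78.4 CPM in KO and 162.2 and 157.9 in WT (-1.23 ± 0.17, adjusted p = 0.0529). The Il1f9-line tumours read 57.4 to 63.7 CPM for Mdm4. On the 18-library scale the 10 colitis libraries read 117.8 to 168.6 CPM, a range that holds the Il1f5 WT tumours at 161.5 to 167.0.

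**Figure D2:**
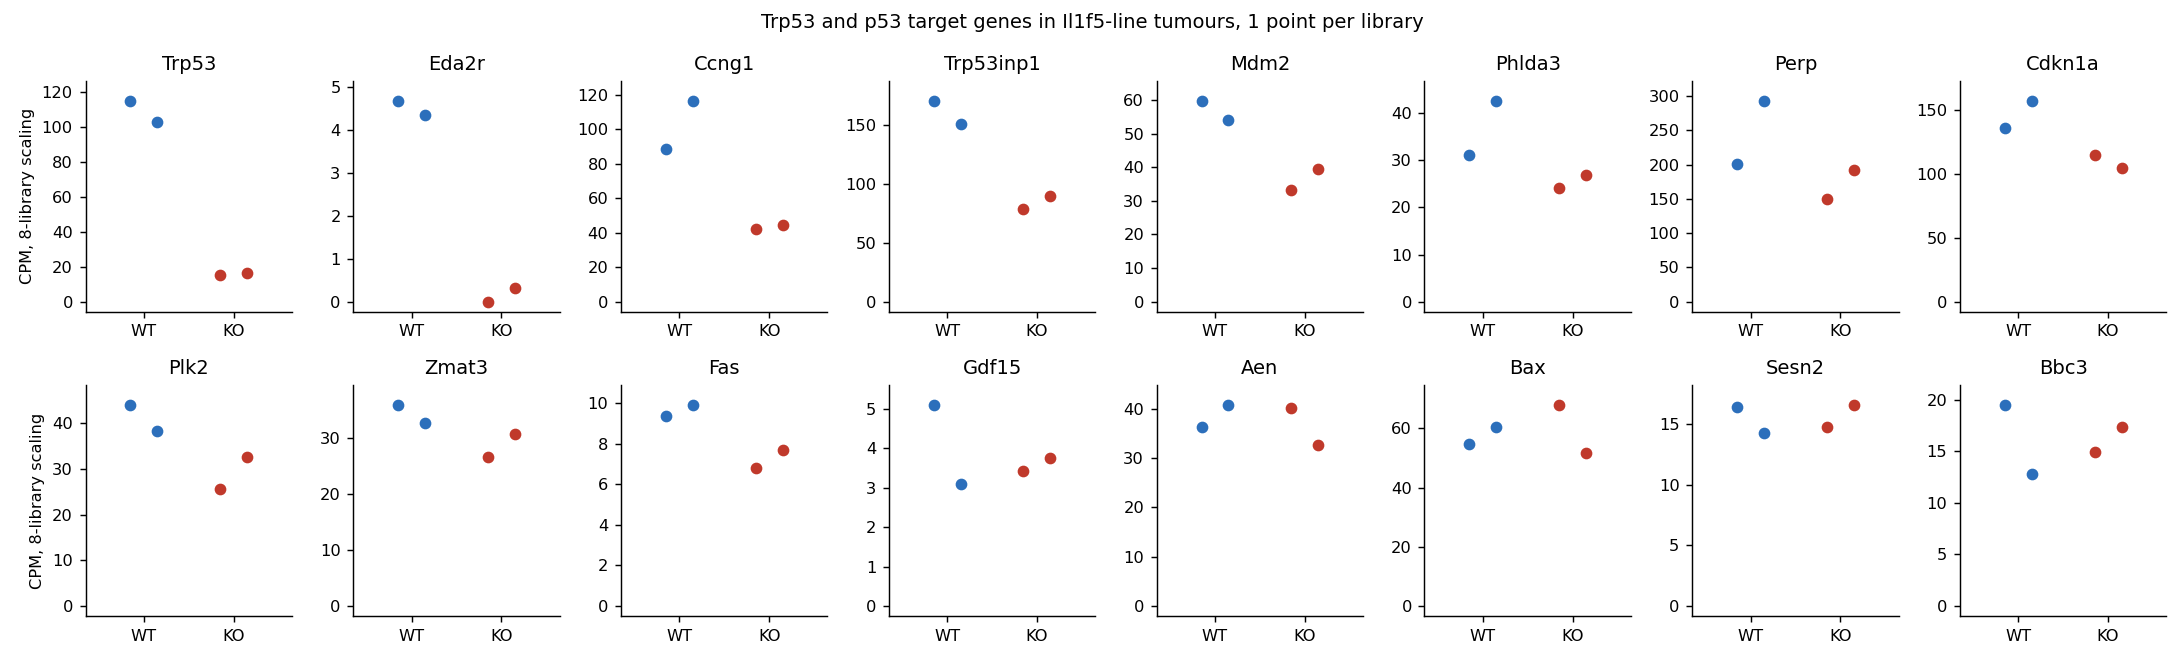
Trp53 and the 15 targets of the p53 list in CPM (8-library scaling), 1 panel per gene in order of p, 1 point per library, WT in blue and KO in red. The groups separate widely for Trp53, Eda2r, Ccng1 and Trp53inp1 and overlap for Gdf15, Aen, Bax, Sesn2 and Bbc3.

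Across all genes, 5 of 17859 tested were called, 2 higher (0.0112%) and 3 lower (0.0168%) in KO, which is 0.028% of the genes tested. Besides Trp53, Krt84 rose, Ephx1 fell, and 2 predicted genes were called, the non-coding Gm42047, which fell (57.2 and 39.7 CPM in KO, 300.8 and 383.9 in WT), and the processed pseudogene Gm14719, which rose. In the Il1f9-line tumours Gm42047 was read at 57.3 to 99.7 CPM, below the Il1f5 WT tumours. Krt84, a hair-type keratin, was read at 104.7 and 149.4 CPM in KO and at 27.4 and 29.6 in WT (2.16 ± 0.22, adjusted p = 0.0185). It stood at 109.0 and 114.4 CPM in the Il1f9 KO tumours and 14.0 and 20.4 in their WT, so that both KO groups lay above both WT groups, and the effects of the 2 lines did not differ by test (adjusted p = 0.384). Ephx1, the microsomal epoxide hydrolase that detoxifies reactive epoxides, was read at 4.69 and 5.24 CPM in KO and at 19.0 and 21.6 in WT (-2.03 ± 0.21, adjusted p = 0.0185). Without any 1 of the 4 libraries Ephx1 and Gm14719 lost the call (adjusted p up to 0.209 and 0.254), Krt84 lost it without KO 2, WT 1 or WT 2 (up to 0.183), and Gm42047 lost it without KO 2 (0.0585). All 5 are called in the same direction in the authors' deposited table, which called 1450 genes higher and 804 lower.

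The count of called genes rests on where the threshold falls. An unadjusted p under 0.05 was reached by 4106 genes, and an adjusted p under 0.10 by 1279 genes, 773 higher and 506 lower, which is 7.16% of all genes tested, 4.33% higher and 2.83% lower. With DESeq2 size factors the split was 538 higher and 539 lower. KO and WT libraries did not overlap for any of the 1279, where 63.5% of all genes tested did not overlap. The wider set shrank when 1 library was left out, to 0 higher and 2 lower without WT 2, to 5 and 13 without WT 1 and to 5 and 3 without KO 1, and was 739 and 312 without KO 2. When only the 4 libraries were fitted, 450 genes were higher and 576 lower at an adjusted p under 0.05, and 767 of the 1279 were among them.

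Otop2, which encodes a proton channel, stood at 22.5 and 15.0 CPM in KO and 0.888 and 0.735 in WT (4.52 ± 0.78, adjusted p = 0.0789). Its neighbour Ush1g, which lies within the Otop2 gene on the other strand so that unstranded reads cannot be told apart, was higher by 3.98 ± 0.77. The Il1f9-line WT tumours read Otop2 at 24.05 and 22.3 CPM and the KO tumours at 10.5 and 1.95, which places the Il1f5 WT tumours at the low end. Aqp5, a water channel of secretory epithelium, was higher by 4.09 ± 0.68, and Col9a3, a fibril-associated collagen chain, by 2.55 ± 0.43. H19, an imprinted non-coding RNA, was read at 327.5 and 139.7 CPM in KO and at 44.6 and 12.2 in WT (3.04 ± 0.71, adjusted p = 0.0971), with wide gaps between the libraries of a group. Also named by the rule for large positive differences, beside Mcpt1 and Tpsb2, were Faim2, Igfals, Serpinf2, the mitochondrial tRNA mt-Tp and Tmem254c, the last having near-identical copies on chromosome 14.

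Among genes below WT in the wider set were several expressed by gut epithelium. The calcium-activated chloride channel regulator Clca4a stood at 49.1 and 72.4 CPM in KO and at 224.0 and 360.8 in WT (-2.27 ± 0.34, adjusted p = 0.0693), and Clca3a2 was lower by 1.82 on the log2 scale. Atp12a, the non-gastric proton pump of the distal colon surface, stood at 21.6 and 53.6 CPM in KO and 182.4 and 144.2 in WT (-2.12 ± 0.44, adjusted p = 0.0811). Shh, the hedgehog ligand made by gut epithelium, was read at 1.37 and 3.13 CPM in KO and at 6.68 and 9.90 in WT. Sema3a, Frem1, Amd2, Nlrp9b, Ccdc39 and the metallothionein Mt2 were also named by the rule for large negative differences, which sets a minimum level and leaves out predicted genes and immunoglobulin segments.

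Of 14 goblet cell markers, 6 were lower in KO and 0 higher at 0.10, the groups were apart with KO below WT in 8, and the median was -0.60. Over all genes tested, 2.83% were lower at 0.10 and 30.3% had KO below WT. Muc2, the gel-forming mucin of the colon, stood at 589.4 and 758.0 CPM in KO and 1082 and 1907 in WT (-1.15 ± 0.26, adjusted p = 0.0811). Fcgbp, a mucus-binding protein, stood at 244.7 and 464.8 CPM in KO and 811.0 and 896.2 in WT (-1.27 ± 0.28). Tff3, a trefoil peptide secreted with mucus, stood at 145.7 and 192.4 CPM in KO and 315.4 and 329.3 in WT (-0.93 ± 0.20). The Il1f9-line tumours read Muc2 at 113.0 and 102.1 CPM in WT and 224.4 and 188.2 in KO, below both Il1f5 groups. They read Fcgbp at 160.3 to 314.4 CPM, below the Il1f5 WT tumours. For Tff3 their range, 196.1 to 330.9 CPM, held the Il1f5 WT values. Sytl2, Fer1l6 and Agr2, which act in vesicle traffic and mucin folding, made up the 6. Spdef and Creb3l1, transcription factors of secretory maturation, overlapped between the groups. The count was 8 without KO 2 and 0 without any other 1 of the 4 libraries. Summed over the list, markers read 1947 and 2888 CPM in KO and 4148 and 5393 in WT.

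Of 24 absorptive colonocyte markers, 2 were lower at 0.10 (2.83% of all genes tested), Atp12a and Krt20, and the median was -0.50. The groups overlapped for 15 of the 24, where 63.5% of all genes tested did not overlap. Without KO 1, WT 1 or WT 2 the count of lower markers was 0. Krt20, a keratin of mature surface cells, stood at 250.5 and 346.0 CPM in KO and 471.3 and 625.0 in WT. Car1 and Cyp2c55 were high in WT 2, at 856.8 and 91.1 CPM against 329.4 and 7.85 in WT 1. Ceacam1 and Vil1, the markers with the most reads, differed by -0.02 ± 0.21 and 0.23 ± 0.23, and Ceacam1 changed sign without KO 2, without WT 2 and without the filter on low counts. The median of this list shrank to -0.19 without WT 2.

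Of 15 mast cell markers, 8 were higher in KO and 0 lower at 0.10, against 4.33% and 2.83% of all genes tested. The median was 1.60, and summed levels were 390.0 and 678.8 CPM in KO against 187.5 and 177.2 in WT. Mcpt1, the chymase of mucosal mast cells, stood at 175.8 and 300.3 CPM in KO and 60.01 and 46.8 in WT (2.16 ± 0.27, adjusted p = 0.0529). Mcpt2, another mucosal protease, stood at 89.99 and 198.6 CPM in KO and 46.5 and 34.4 in WT (1.84 ± 0.36, adjusted p = 0.0792). Tpsb2 and Mcpt4, a tryptase and a chymase of connective-tissue mast cells, were higher by 2.18 ± 0.36 and 1.45 ± 0.27, and Cpa3, the mast cell carboxypeptidase, by 1.66 ± 0.30. The lineage genes Kit, Gata2 and Ms4a2 overlapped between the groups, at 12.2 and 19.2 CPM in KO against 11.6 and 17.6 in WT for Kit, while Fcer1a, a chain of the IgE receptor, was higher (1.88 ± 0.52). The count was 2 without KO 1, 4 without KO 2 and 0 without WT 1 or WT 2.

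Erythrocyte genes and some plasma protein genes also read higher in the KO libraries, and their part in the mast cell result was not tested. All 5 erythrocyte genes tested were higher in both KO libraries than in WT, as were 33.2% of all genes tested. None of the 5 passed at 0.10, and together they summed to 70.3 and 26.4 CPM in KO against 8.46 and 10.8 in WT. The plasma protein gene Trf was read at 17.5 and 15.3 CPM in KO and 4.30 and 4.16 in WT (1.95 ± 0.26, adjusted p = 0.0529), and Alb at 82.6 and 71.1 CPM in KO and 20.3 and 17.3 in WT. The 5 hepatocyte markers tested summed to 117.6 and 105.7 CPM in KO and 44.2 and 36.9 in WT. Neutrophil genes were mixed, with Ly6g lower at 0.10 and S100a8 at 137.7 and 149.4 CPM in KO against 49.1 and 51.0 in WT (adjusted p = 0.152). Of 21 B and plasma cell genes, 1 was higher and 2 lower at 0.10, against 4.33% and 2.83% of all genes tested. The groups overlapped for 13 of the 21, where 63.5% of all genes tested did not overlap. The higher gene was Sdc1, and the lower were Ighd and the immunoglobulin constant gene Ighg2c, which was read at 2.32 and 4.36 CPM in KO and at 186.9 and 37.6 in WT. Of 23 T and NK cell genes and 21 macrophage genes tested, 0 passed at 0.10.

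Of 30 cell cycle and replication genes, 8 were higher in KO and 0 lower at 0.10, against 4.33% and 2.83% of all genes tested. The median was 0.51. KO lay above WT in 23 of the 30, where 33.2% of all genes tested had KO above WT. Mcm2 stood at 137.4 and 111.2 CPM in KO and 68.5 and 63.0 in WT (0.92 ± 0.16, adjusted p = 0.0693). With Mcm2, the helicase subunits Mcm3, Mcm5, Mcm6 and Mcm7 and the licensing factor Cdt1 made up 6 of the 8, and the mitotic genes Aurkb and Cdc20 the rest. Mki67, a marker of dividing cells, was read at 183.8 and 157.4 CPM in KO and 216.1 and 232.2 in WT (-0.39 ± 0.17, adjusted p = 0.202). Top2a overlapped between the groups, and its difference of 0.01 ± 0.15 changed sign with DESeq2 size factors. The count of 8 became 14 without KO 2 and 0 without any other 1 of the 4 libraries.

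**Figure D3:**
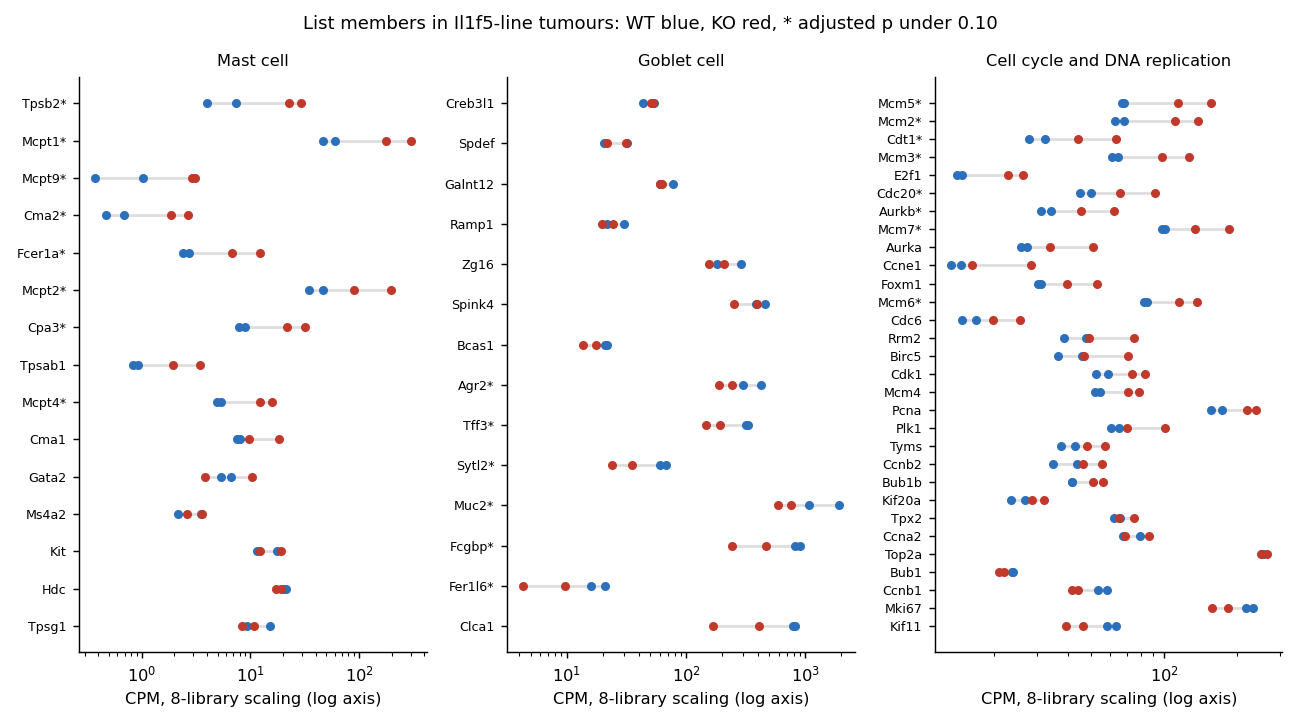
Members of the mast cell, goblet cell and cell cycle lists in CPM (8-library scaling) on a log axis, 1 row per gene in order of fold change, WT in blue and KO in red, with an asterisk at an adjusted p under 0.10. KO points lie to the right for mast cell proteases and Mcm genes and to the left for Clca1, Fcgbp and Muc2.

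Of 25 Wnt target and crypt stem cell genes, 3 were higher in KO and 0 lower at 0.10, against 4.33% and 2.83% of all genes tested. The median of the 25 was 0.31. The 3 higher genes were the cyclin gene Ccnd1 (281.0 and 205.1 CPM in KO, 118.2 and 134.5 in WT, 0.94 ± 0.20), Smoc2 (1.16 ± 0.25) and the progenitor factor Sox9 (0.71 ± 0.20). Lgr5, the crypt stem cell receptor, overlapped between the groups, and so did Wif1, while the feedback inhibitor Nkd1 differed by 0.35 ± 0.19. Of 10 EGF receptor family and ligand genes tested, 2 were lower and 0 higher at 0.10, the ligands Ereg and Nrg1. Ereg stood at 10.2 and 9.14 CPM in KO and 26.2 and 27.8 in WT (-1.48 ± 0.32, adjusted p = 0.0804). Mmp7, an epithelial protease of intestinal tumours, was higher, at 581.8 and 560.8 CPM in KO and 338.3 and 260.4 in WT (0.93 ± 0.20, adjusted p = 0.0792).

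At 0.10, 4.33% of all genes tested were higher in KO and 2.83% lower. Of 24 glycolysis and hypoxia genes, 5 were higher in KO and 0 lower at 0.10, with a median of 0.45. The 5 were the lactate exporter Slc16a3 (255.7 and 206.1 CPM in KO, 87.7 and 101.5 in WT, 1.29 ± 0.22) and the glycolytic enzymes Pfkl, Pgam1, Tpi1 and Pkm. The Il1f9-line tumours, WT and KO, read Slc16a3 at 346.0 to 600.3 CPM, above both Il1f5 groups. They read Pfkl at 203.2 to 259.0 CPM, Pgam1 at 280.6 to 397.0 and Tpi1 at 848.5 to 917.9, all above the Il1f5 WT tumours. The hypoxia targets Vegfa, Adm and Car9 overlapped between the groups. Of 87 ribosomal protein genes, a list added after seeing the data, 40 were higher and 0 lower at 0.10, with a median of 0.63. Together these genes took 7.13 and 6.04% of counts in KO and 4.50 and 5.01% in WT. In the Il1f9-line tumours they took 7.10 and 7.20% in WT and 6.04 and 7.75% in KO, which places the Il1f5 WT tumours at the low end. Without KO 1, WT 1 or WT 2 the counts of the Wnt, glycolysis and ribosomal protein lists were all 0. When all genes were cut into 3 equal classes by length, the median log2 fold change was 0.10 in the shortest and -0.12 in the longest, and the part of length in the ribosomal protein result was not tested.

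Inflammatory lists held few differences at 0.10, the threshold at which 4.33% of all genes tested were higher and 2.83% lower. Of 16 inflammatory cytokine genes tested, 1 was higher at 0.10, Tgfb1 (52.3 and 45.1 CPM in KO, 33.8 and 28.2 in WT). Nos2, the inducible nitric oxide synthase, was read at 208.3 and 195.2 CPM in KO and 124.5 and 58.3 in WT (adjusted p = 0.561). The Il1f9-line tumours, which share the estimate of the spread, read Nos2 at 852.5 and 233.9 CPM in WT and 135.4 and 734.4 in KO. With only the 2 groups fitted in edgeR, the adjusted p was 0.156 for Nos2 and 0.0709 for the interferon response gene Ifitm3, against 0.375 for Ifitm3 in the main fit. Of 16 IL-1 family genes tested, Il33, an epithelial alarmin, was higher (0.81 ± 0.20) and the receptor Il1r1 lower (-0.95 ± 0.26). The median of these 16 was -0.32, and KO lay below WT in 9, where it did for 30.3% of all genes tested. Of 29 interferon response genes, 0 passed, with a median of 0.39. Of 16 antigen presentation genes, 0 passed, and KO lay above WT in 11, where it did for 33.2% of all genes tested, as for H2-K1 at 2445 and 1694 CPM in KO and 1442 and 1226 in WT (adjusted p = 0.592). None of 25 chemokine genes passed, and their median was -0.02.

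**Figure D4:**
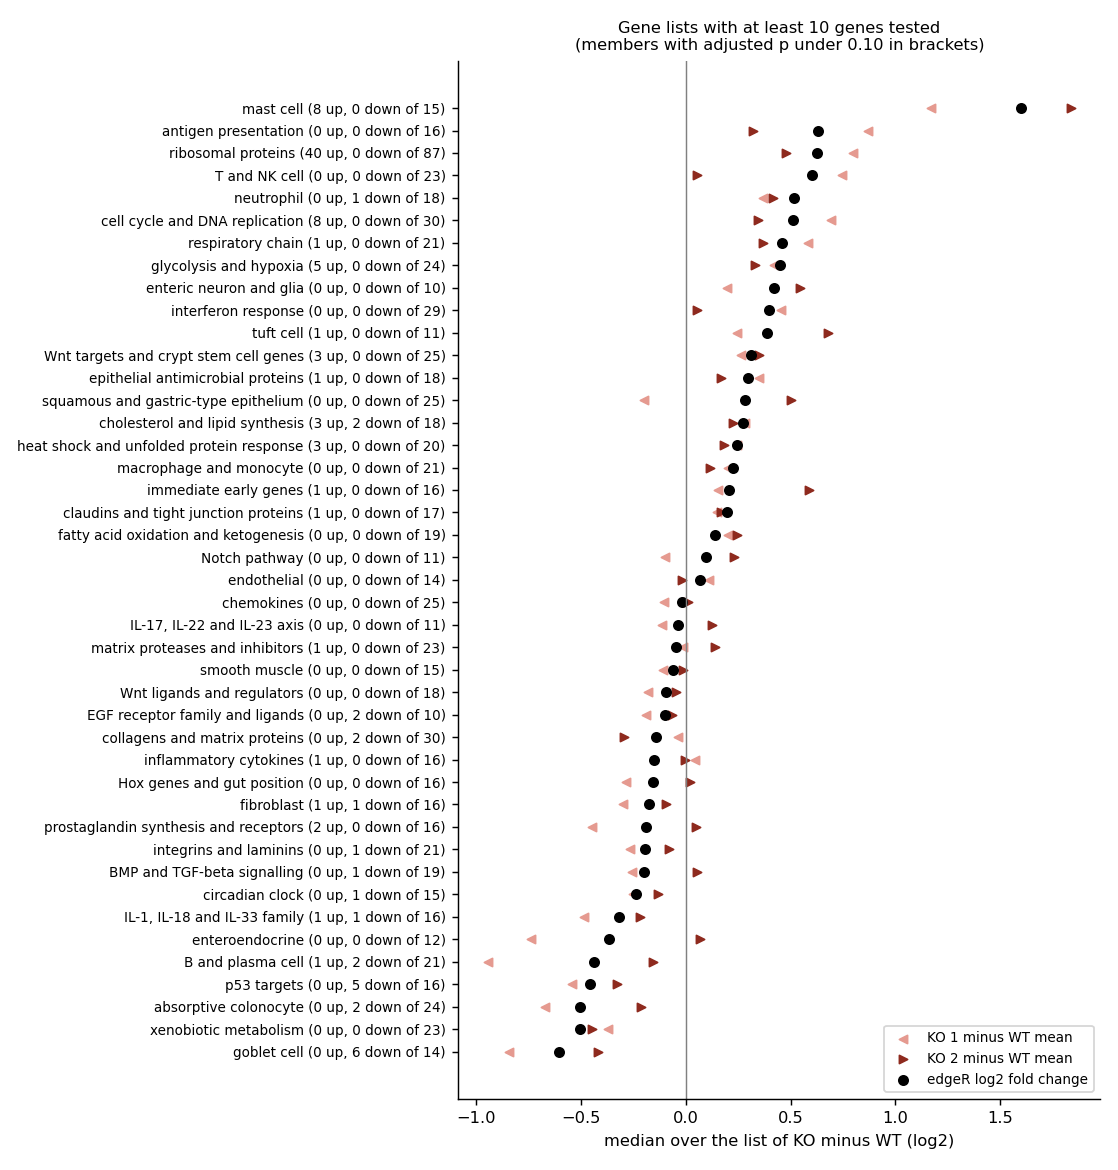
Median KO minus WT difference (log2) of each list with at least 10 genes tested, with triangles for each KO library against the WT mean and black points for the edgeR fold change. Mast cell genes lie at 1.60 and goblet cell genes at -0.60, and both KO libraries lie on the same side of 0 in these lists.

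Chromosome 13 stood apart from the other autosomes. Of 690 genes tested there, 85 were lower and 1, Hist1h4c, higher at 0.10, which is 12.5% against 7.16% over all genes. The median log2 fold change on chromosome 13 was -0.39, and 77.0% of its genes lay below 0. The next lowest autosome, chromosome 3, had a median of -0.11. The shift was present in both libraries, at -0.51 in KO 1 and -0.24 in KO 2 against the WT mean, and in all 12 bins of 10 Mb with at least 20 genes, whose medians ran from -0.85 to -0.09. It was -0.03 for the Il1f9 effect in tumours and -0.06 for the Il1f5 effect in colitis. In the 3 length classes, from shortest to longest, it was -0.13, -0.45 and -0.48, against 0.11, 0.09 and -0.10 for genes elsewhere. Genes of the chromosome named by rule were Vcan, a matrix proteoglycan, at 5.78 and 7.14 CPM in KO and 16.5 and 18.3 in WT, and the sterol enzymes Hmgcs1 at 97.5 and 122.7 against 186.1 and 234.2 and Idi1 at 33.8 and 38.5 against 51.2 and 65.7. Without KO 1, WT 1 or WT 2, 0 of the genes were lower at 0.10, and the median stayed between -0.53 and -0.31 over all 4 settings. On chromosome Y, 8 of 9 genes tested had KO below WT, against 30.3% of all genes tested, with Eif2s3y at 29.7 and 25.7 CPM in KO and 59.7 and 57.5 in WT. Around Il1f5 itself, 10 genes were higher and 1 lower at 0.10 of 136 within 5 Mb, or 8.09%.

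**Figure D5:**
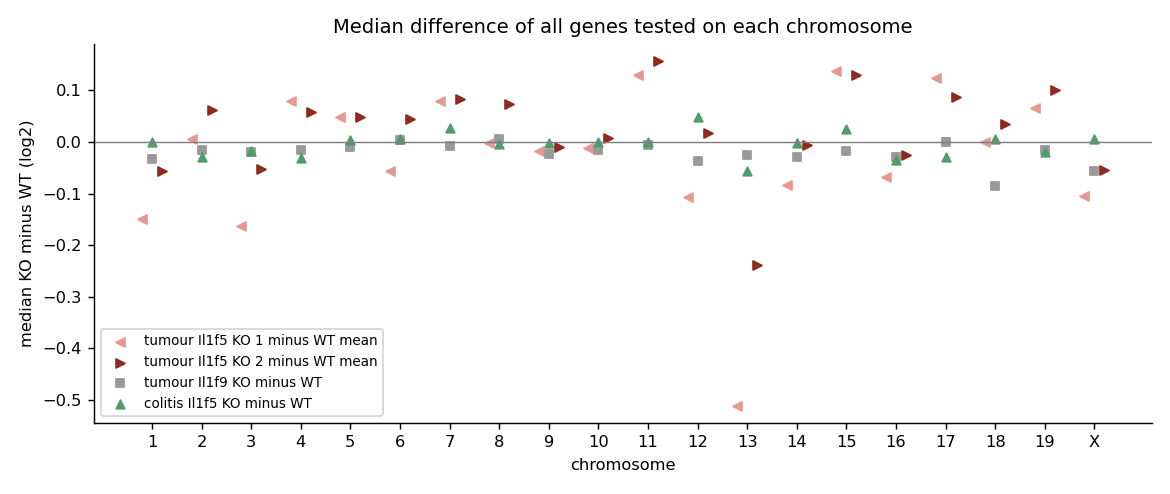
Median KO minus WT difference (log2) over the genes tested on each autosome and X, with sideways triangles for each Il1f5 KO tumour against the WT mean, squares for the Il1f9 effect in tumours and upright triangles for the Il1f5 effect in colitis. Chromosome 13 lies at -0.51 in KO 1 and -0.24 in KO 2.

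The Il1f5 effect was tested against the effect of the other line in the same tissue, which shares no library with it. It differed for 14 genes (0.0784% of those tested), 6 above (0.0336%) and 8 below 0 (0.0448%), and for 1 to 3 above and 1 to 5 below when 1 of the 4 libraries was left out. The difference was -2.53 ± 0.20 for Trp53 (adjusted p = 0.0064), whose Il1f9 effect was -0.25 ± 0.14, and -2.47 ± 0.29 for Ephx1 (adjusted p = 0.0315). For Mcpt1 it was 3.33 ± 0.38 (adjusted p = 0.0333), since Mcpt1 was read at 67.2 and 54.3 CPM in the Il1f9 KO tumours and 122.1 and 152.1 in their WT. Camk2b had an effect of -5.36 ± 0.38 in the Il1f9 line and of -0.07 ± 0.26 in the Il1f5 line. Il1f9 itself had 1652 and 752 counts in the Il1f9 WT tumours and 2 and 0 in the Il1f9 KO tumours.

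Set against the Il1f5 effect in colitis, the tumour effect differed for 3524 of 19514 genes (18.1%), 2113 above (10.8%) and 1411 below 0 (7.23%). Trp53 led again, with -2.77 ± 0.14 in tumours and -0.22 ± 0.11 in colitis. Fhl1, a muscle-rich LIM protein, had effects of -1.30 ± 0.21 in tumours and 1.21 ± 0.17 in colitis. The chaperone genes Hsp90ab1 and Stip1 had effects of 0.70 ± 0.13 and 0.58 ± 0.12 in tumours and of -0.75 ± 0.11 and -0.82 ± 0.10 in colitis, and Snd1, a nuclease of RNA silencing complexes, 0.89 ± 0.13 and -0.57 ± 0.10. The counts were 359 above and 202 below 0 without KO 1, 770 and 637 without WT 1 and 1275 and 805 without WT 2.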

How the data were processed

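Per the labels' protocols, poly(A) RNA was purified from 10 µg of total RNA, and non-directional libraries, which do not mark strand, were sequenced as 150-base paired reads. The submitters' processing notes name Trim Galore 0.6.4, HISAT2 2.0.5 and featureCounts 2.0.0, and no genome build is named there or in the tables. Deposited tables hold the authors' counts per gene, whole and unscaled. The authors' deposited comparison of the 2 groups, with its log2 fold changes and raw and adjusted p-values, was read only to set its calls beside those here. No column of another series was used (0 columns).

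Counts were tested with edgeR 4.0.16 under R 4.3.3. Libraries were scaled by TMM, filterByExpr kept 17859 of 54532 genes, and the test was the robust quasi-likelihood F test with a group-means model over the 8 tumour libraries (4 groups share the estimate of the spread), with Benjamini-Hochberg adjustment over all genes tested. Effects in 2 lines or tissues were compared as a contrast of contrasts, with all 18 libraries for colitis. The 2 libraries of each group were checked and were not copies (chi-square per gene of 28.7 in KO and 21.6 in WT). The floor of 3 counts covers counting error only.

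Named genes were Il1f5 and Il1f9, the 12 largest rises and falls with non-overlapping groups and mean log2 CPM of at least 1 without predicted genes, up to 4 members per list by p, the 2 most abundant members of 7 lists and 6 genes per difference of effects. The rule was applied at an adjusted p under 0.05 and, after seeing the data, at 0.10. Genes named outside this rule, including members that missed both thresholds, were chosen after their values were seen. Members, lists (50) and tests were chosen with earlier results of these data known. Alternatives were DESeq2 1.42.0 size factors and Wald test, no filter, the 2 groups or all 18 libraries, a replicate block, other thresholds and each library left out. The scripts were tested on simulated data. Python 3.11.15, numpy 2.4.6, pandas 2.3.3 and matplotlib 3.10.9 were used for the rest.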

Additional observations from a re-analysis of the deposited data

Results flagged for a closer look

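Effects that differed by the test between lines or between tissues were looked at again, on the log2 scale and with edgeR. Against the Il1f9 effect in tumours, the Il1f5 effect differed by -2.53 for Trp53, 5.30 for Camk2b, -2.47 for Ephx1, 9.75 for Il1f9, 3.33 for Mcpt1 and 2.76 for Nox1. The Il1f9 value rests on 2 and 0 counts in the Il1f9 KO tumours and depends on the prior count. When each of the 4 libraries was left out, Ephx1, Il1f9 and Nox1 lost the call in all 4 settings and Mcpt1 without WT 1 or WT 2, while Trp53 and Camk2b kept it. With all 18 libraries fitted, Nox1 also lost the call (adjusted p = 0.0872).

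Against the Il1f5 effect in colitis, the tumour effect differed by -2.55 for Trp53, -2.51 for Fhl1, 1.45 for Snd1, 1.39 for Stip1, -2.51 for Ephx1 and 1.45 for Hsp90ab1. All 6 kept the call in the 6 alternatives run for this comparison. The colitis and tumour libraries differ in tissue and treatment, which cannot be told apart here.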

How the results depend on the processing

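At an adjusted p under 0.05 in edgeR (2 genes higher, 3 lower), the counts were 644 and 509 with the DESeq2 Wald test, 1226 and 717 without the filter on low counts, 450 and 576 with only the 2 groups, 1754 and 1155 with all 18 libraries and 773 and 506 at a threshold of 0.10. At 0.10 they were 1086 and 840 with the DESeq2 Wald test, 1696 and 1006 without the filter, 1771 and 1823 with the 2 groups and 2546 and 1857 with all 18 libraries. Leaving out each library gave 0 to 4 higher and 2 to 3 lower at 0.05, and 0 to 739 and 2 to 312 at 0.10. The cause was not tested.

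KO and WT libraries of the same replicate number had deviations correlated at -0.0022 across genes. With 2 libraries per group, this value cannot settle whether the replicate number pairs the samples. With the replicate block the counts were 4 higher and 5 lower at 0.05 and 120 and 125 at 0.10.

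The difference from the Il1f9 effect (6 genes above 0, 8 below) gave 600 and 540 with all 18 libraries, 16 below 0 with DESeq2 size factors, and 1 to 3 above and 1 to 5 below when a library was left out. The difference from colitis (2113 above, 1411 below) gave 359 to 2141 and 202 to 1354. List medians over libraries left out ran from 0.30 to 0.71 for cell cycle, -0.54 to -0.34 for p53 targets, 1.17 to 1.86 for mast cell, -0.84 to -0.45 for goblet cell and -0.73 to -0.19 for absorptive colonocyte genes, and from -0.53 to -0.31 on chromosome 13. Signs reversed for Camk2b (-0.33 to 0.27 over libraries left out, above 0 without WT 1), for Ceacam1 without the filter (0.0071) and without KO 2 or WT 2 (-0.10 to 0.077 over libraries left out), and for Top2a with DESeq2 size factors (-0.021), the DESeq2 Wald test (-0.013), the 2 groups (-0.026) and without KO 1 (-0.073 to 0.067 over libraries left out). Of 1019 values of named genes under alternatives, 698 kept direction and side of 0.05, 301 passed it anew, 12 lost it and 8 reversed.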

Other observations

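Several lists not described above held 1 to 3 members past an adjusted p under 0.10 in edgeR. At that threshold 4.33% of all genes tested were higher and 2.83% lower. Avil, an actin-bundling protein of tuft cells, was read at 144.6 and 113.5 CPM in KO and 64.3 and 62.2 in WT (1.03 ± 0.18), and was the only one of 11 tuft cell markers tested to pass. Cldn2, a pore-forming claudin of leaky epithelium, stood at 350.5 and 202.8 CPM in KO and 97.9 and 120.7 in WT (1.34 ± 0.29), 1 of 17 tight junction genes. Of 20 chaperone and unfolded protein genes, 3 were higher, Calr, Sdf2l1 and Hspe1, with Calr at 1355 and 1126 CPM in KO and 804.3 and 771.2 in WT.

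Bmp5, a ligand of the BMP pathway, was lower at 3.10 and 5.90 CPM in KO and 11.1 and 10.3 in WT (-1.25 ± 0.32). It was the 1 lower gene of 19 BMP and TGF-beta genes, where 2.83% of all genes tested were lower. Pdgfra, a receptor of fibroblasts, was lower (-1.01 ± 0.26), and so was the clock gene Per2 (-0.79 ± 0.19). Of 23 xenobiotic metabolism genes tested, 0 passed, with a median of -0.51.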
